A study of Mus musculus with 18 samples.

Results

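Prnd, 2210407C18Rik and 3425401B19Rik are 3 genes of the mouse left ventricle that were lower when minocycline was added to an isoproterenol infusion. They are described here together with Prnp, the prion protein gene that lies next to Prnd. These 4 genes were matched by name among 48709 genes of the deposited count table, and all 4 were among the 13281 genes with enough counts to test. Prnd, 2210407C18Rik and 3425401B19Rik were chosen by their counts in isoproterenol and minocycline versus isoproterenol, where edgeR called them lower, so their levels and fitted differences stand below as a description, without p-values. All 3 comparisons share libraries with that choice. Prnp was taken as the neighbour and relative of Prnd and keeps its p-value from the fit over all genes.

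The libraries were made from polyadenylated RNA of the left ventricle of male wild-type C57BL/6J mice aged 12 weeks. The isoproterenol and minocycline group received isoproterenol, a synthetic agonist of β-adrenergic receptors, at 30 mg/kg/day from an osmotic pump, with 50 mg/kg minocycline injected into the peritoneum each day. Minocycline is a tetracycline antibiotic with anti-inflammatory actions. The isoproterenol group had the same infusion with saline injections, and the control group had saline by both routes. Tissue was taken after 21 days. There were 6 libraries a group. Hearts given minocycline without isoproterenol were not analysed here. The protocol speaks of pooled RNA while each library has its own number, so each p-value weighs a difference against the spread among libraries that may not be single animals.

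Prnp encodes the cellular prion protein, a copper-binding glycoprotein held on the cell surface by a glycosylphosphatidylinositol (GPI) anchor, and is known in the heart and brain alike. Prnd encodes doppel, a related GPI-anchored protein that resembles the folded part of the prion protein, is abundant in the testis, where it is needed for male fertility, and is otherwise known from endothelial cells of the developing brain. 3425401B19Rik is listed by RefSeq under the synonym Cefip, the cardiac-enriched FHL2-interacting protein of the Z-disc, which anchors the thin filaments of the sarcomere, and Cefip has been tied to calcineurin-NFAT signalling. RefSeq lists 2210407C18Rik with the synonym Ep1, and no function is given for it here.

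All 4 genes have a promoter window in the RefSeq table for GRCm38.p6, running from 250 bases before to 50 after a start. The windows printed for Prnd, 3425401B19Rik and Prnp lie at the outer start of the gene, while that of 2210407C18Rik belongs to a start 2.58 kb inside the gene as the table places it. Prnd has a further window, 0.176 kb downstream, that overlaps the first and is not printed. One window of each is printed 5′ to 3′ on the gene's own strand, because the 4 genes moved in different patterns and their start regions can be read side by side. Capitals mark the motifs found by a search of both strands for the GC box (GGGCGG), the cAMP response element (TGACGTCA), its shorter form (TGACG), the E-box (CACGTG), the TATA box (TATAAA) and the AP-1 site (TGANTCA). The shorter form lies within the full element.
Prnd, chr2:131950611-131950910, plus strand: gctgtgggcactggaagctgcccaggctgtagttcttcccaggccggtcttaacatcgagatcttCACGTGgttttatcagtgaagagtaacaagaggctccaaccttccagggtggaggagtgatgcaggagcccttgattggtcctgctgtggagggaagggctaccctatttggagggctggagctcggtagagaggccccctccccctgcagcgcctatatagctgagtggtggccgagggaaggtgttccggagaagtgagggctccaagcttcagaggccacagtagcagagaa
2210407C18Rik, chr11:58613443-58613742, minus strand: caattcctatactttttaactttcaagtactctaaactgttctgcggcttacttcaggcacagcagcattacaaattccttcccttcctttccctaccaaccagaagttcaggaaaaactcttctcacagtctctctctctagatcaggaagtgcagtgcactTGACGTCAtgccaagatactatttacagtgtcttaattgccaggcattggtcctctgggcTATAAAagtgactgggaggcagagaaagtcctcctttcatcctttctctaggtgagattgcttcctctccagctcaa
3425401B19Rik, chr14:32685223-32685522, minus strand: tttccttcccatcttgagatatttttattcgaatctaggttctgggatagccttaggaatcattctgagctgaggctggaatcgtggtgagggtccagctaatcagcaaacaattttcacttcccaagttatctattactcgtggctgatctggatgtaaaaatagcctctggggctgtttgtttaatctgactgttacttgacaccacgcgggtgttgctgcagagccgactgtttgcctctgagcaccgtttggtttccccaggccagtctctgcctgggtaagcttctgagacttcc
Prnp, chr2:131909678-131909977, plus strand: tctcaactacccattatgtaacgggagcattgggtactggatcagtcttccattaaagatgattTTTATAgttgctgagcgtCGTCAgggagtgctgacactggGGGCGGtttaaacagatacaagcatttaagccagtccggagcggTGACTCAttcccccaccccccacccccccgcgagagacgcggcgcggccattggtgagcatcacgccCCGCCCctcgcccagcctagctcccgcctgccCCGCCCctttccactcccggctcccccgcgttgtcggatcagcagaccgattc
The 2210407C18Rik window holds a full cAMP response element, which is present in 1.8% of 32851 such windows, and a TATA box, present in 13.6%. The printed Prnd window holds an E-box, present in 7.2% of windows, and the further Prnd window holds none of the motifs. The Prnp window holds 3 GC boxes, a motif present in 35.7% of windows. It also holds an AP-1 site (7.8%) and a shorter cAMP response element (20.8%). The letters TATAAA lie in the Prnp window only on the strand opposite to the gene, in the upstream part. They do not mark a TATA box at the Prnp start. The search took TATAAA alone, so other TATA-like letters were not marked in any window. None of the searched motifs was found in the 3425401B19Rik window. The G+C share was 57.7% for Prnd, 44.0% for 2210407C18Rik and 47.3% for 3425401B19Rik, against a median of 52.7% over all windows, and that of Prnp was the highest of the printed windows, equal to that of the further Prnd window. A match of letters is a description of the window and does not show that a factor binds there.

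Prnp lies at chr2:131909928-131938429 and Prnd at chr2:131950861-131956130 on the plus strand of GRCm38, 12.4 kb apart. Another gene of the annotation, the readthrough gene Prn at chr2:131909957-131956130, runs across both. Of the 3211 exonic bases of Prnd in GENCODE M21, 97.2% also belong to Prn, against 6.2% of the 2343 exonic bases of Prnp. Reads of Prnd can therefore be split between Prnd and Prn by the counting. The first coding bases show the overlap. Capitals mark the start of the Prnd coding sequence, which Prn carries after 54 coding bases of its own, and the start of Prnp is printed beside them because Prnp begins with other letters.
Prnd: ATGAAGAACCGGCTGGGTACATGGTGGGTG
Prn: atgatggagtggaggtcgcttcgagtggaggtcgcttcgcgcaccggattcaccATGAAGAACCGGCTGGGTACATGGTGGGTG
Prnp: atggcgaaccttggctactggctgctggcc

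Counts per library ranged between 14203041 and 22688664. In exact permutation tests (2-sided), differences in the totals missed the threshold, with p = 0.102 for isoproterenol and minocycline versus isoproterenol, 0.665 for isoproterenol and minocycline versus control and 0.0779 for isoproterenol versus control (n = 6 libraries each). At an adjusted p under 0.05, edgeR called 7 genes (0.0527% of those tested) in isoproterenol and minocycline versus isoproterenol, with 0.00753% called higher and 0.0452% called lower, 19.3% of genes in isoproterenol and minocycline versus control and 12.6% in isoproterenol versus control. In 4 libraries, isoproterenol and minocycline 2, isoproterenol 5 and controls 5 and 6, the atrial light chain gene Myl7 was above 80 CPM (counts scaled to library size). Cardiomyocyte genes defined the tissue in every library: the CPM of 12 cardiomyocyte markers summed to between 66280 and 78300 with isoproterenol and minocycline, between 67200 and 72960 with isoproterenol and between 79160 and 86920 in controls.

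Prnd was the least abundant of the 4 genes, and its level was highest under isoproterenol. With isoproterenol and minocycline the 6 libraries held between 0.403 and 2.94 CPM, with a median of 0.818. With isoproterenol they held between 3.48 and 6.34 CPM, with a median of 3.72, and in controls between 1.23 and 2.98 CPM, with a median of 2.06. Every library given isoproterenol alone was above every library of the other groups, whereas the isoproterenol and minocycline group and the control group overlapped. Of all tested genes, 0.346% had no overlap in isoproterenol and minocycline versus isoproterenol and 6.9% in isoproterenol versus control. In deposited counts, isoproterenol and minocycline libraries 1 to 6 held 9, 15, 23, 18, 7 and 62 counts of Prnd. The isoproterenol libraries held 100, 72, 123, 67, 61 and 60, and the controls 20, 60, 37, 59, 45 and 32. The depth behind Prnd is therefore small. A count of 7 has an exact 95% Poisson interval of 2.81 to 14.4, and a count of 62 one of 47.5 to 79.5. These intervals cover counting error only.

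Prnd averaged 1.09 ± 0.947 CPM with isoproterenol and minocycline against 4.49 ± 1.36 CPM with isoproterenol (SD, n = 6 each), a fitted log2 fold change of -2.01 (SE 0.35), or 4.02-fold lower. Against controls, at 2.17 ± 0.646 CPM, the fitted log2 fold change of the isoproterenol and minocycline group was -0.97 (SE 0.37). Isoproterenol alone was 2.05-fold higher than control, a log2 fold change of 1.04 (SE 0.33). One library carried much of the spread in the isoproterenol and minocycline group: without library 6, at 2.94 CPM, the log2 fold change was -2.61 against isoproterenol and -1.57 against control. In a heart sample, fewer cells of a type that expresses a gene and less RNA per cell cannot be told apart.

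**Figure D1:**
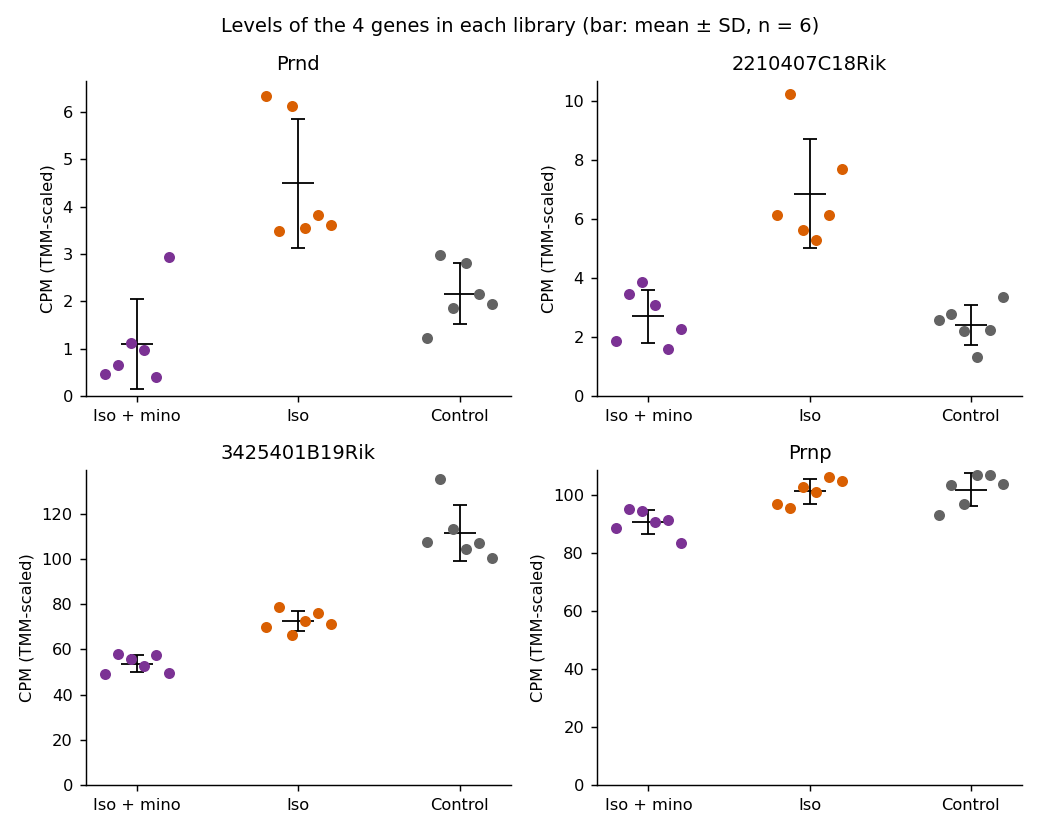
Each point is 1 library, on a vertical axis of CPM scaled by TMM that starts at 0. The bars give the mean ± SD of 6 libraries, with isoproterenol and minocycline (Iso + mino) at the left, isoproterenol (Iso) in the middle and control at the right. Prnd and 2210407C18Rik are highest with isoproterenol alone, 3425401B19Rik is lowest with isoproterenol and minocycline and highest in controls, and the Prnp groups lie close together, between 83.5 and 107.1 CPM.

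The readthrough gene Prn was listed at 0 in most libraries. It held 25 and 10 counts in isoproterenol and minocycline libraries 6 and 5, 8 counts in isoproterenol library 4, and 17 and 18 counts in control libraries 1 and 5. The other libraries were at 0. Library 6 of the isoproterenol and minocycline group, the highest of its group in Prnd, was thus also the highest in Prn. As a share of the counts of both genes, Prn held 28.74% there and 58.82% in library 5 of that group. The share was 45.95% in control 1, 28.57% in control 5 and 10.67% in isoproterenol library 4. Library 5 and control 1 were the lowest of their groups in Prnd. When the counts of both genes were added together, an alternative chosen after seeing the data, the log2 fold change was -1.70 (SE 0.37) for isoproterenol and minocycline versus isoproterenol. It was -0.83 (SE 0.38) versus control, and 0.87 (SE 0.35) for isoproterenol versus control. The direction was that of Prnd alone in each case. The summed CPM lay between 0.459 and 4.12 with isoproterenol and minocycline, between 3.48 and 6.34 with isoproterenol and between 1.86 and 3.03 in controls. With Prn added, the isoproterenol and minocycline group therefore overlapped with the isoproterenol group, through library 6, and the isoproterenol libraries still lay above the controls.

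**Figure D2:**
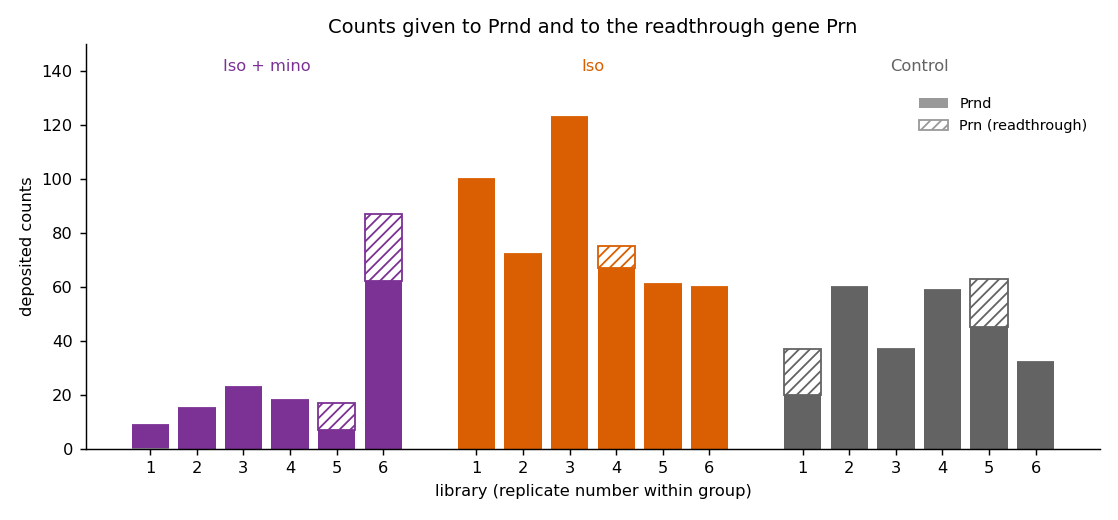
Each bar is 1 library, and its height is the number of deposited counts on an axis that starts at 0. The filled part is Prnd and the hatched part the readthrough gene Prn, which takes 25 counts in isoproterenol and minocycline library 6 and is at 0 in most libraries.

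Prnp was abundant and nearly level across the groups. It held between 83.5 and 95.2 CPM with isoproterenol and minocycline (median 91.1), between 95.7 and 106.4 CPM with isoproterenol (median 101.9) and between 93.1 and 107.1 CPM in controls (median 103.8). The isoproterenol and minocycline libraries all lay below the isoproterenol libraries, and they overlapped with the controls. Prnp was thus among the 0.346% of tested genes without overlap in isoproterenol and minocycline versus isoproterenol. This held on the TMM scale alone: without TMM factors the groups reached 99.67 CPM with isoproterenol and minocycline and began at 99.63 CPM with isoproterenol, and in TPM they reached 66.8 and began at 65.2. The log2 fold change in that comparison was -0.16 (SE 0.051) with a 95% interval of -0.27 to -0.05, and it did not pass the threshold (edgeR, adjusted p = 0.464).

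Against controls, Prnp fell by 0.17 on the log2 scale with isoproterenol and minocycline (SE 0.051, edgeR adjusted p = 0.0250). On the TMM scale, all 6 libraries were below the control mean, and the group means were 90.7 and 101.9 CPM. Without TMM factors the means lay closer together, at 91.9 CPM with isoproterenol and minocycline and 96.3 CPM in controls. In TPM they were 60.4 and 62.6. Prnp was 1 of the 19.3% of tested genes called in this comparison. The call was lost when isoproterenol and minocycline library 6 (adjusted p = 0.0626), control 4 (0.0634) or control 5 (0.0541) was left out. It was also lost without a filter on low counts (0.0590), with only the 12 libraries compared (0.0503) and without the 4 libraries above 80 CPM of Myl7 (0.136). Over the 10 alternatives of other kinds than leaving out 1 library, the adjusted p lay between 0.00499 and 0.136.

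Between isoproterenol and control, the Prnp log2 fold change was -0.01 (SE 0.051, edgeR adjusted p = 0.934), with a 95% interval of -0.12 to 0.10. Prnp averaged 101.3 ± 4.25 CPM with isoproterenol and 101.9 ± 5.67 CPM in controls (SD, n = 6 each). Without the TMM factors the averages were 105.8 CPM with isoproterenol and 96.3 CPM in controls, so the order of these means turned with the scaling. For Prnd, 2210407C18Rik and 3425401B19Rik, the order of the 3 group means was the same on both scales.

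Prnd was also set against Prnp within each library, since both are read from neighbouring stretches of chromosome 2. The Prnd counts amounted to between 0.440 and 3.52% of the Prnp counts with isoproterenol and minocycline, between 3.45 and 6.54% with isoproterenol and between 1.32 and 2.88% in controls. Counts given to Prn are not part of these shares. The highest value of the isoproterenol and minocycline group came from library 6, which lay just inside the isoproterenol range. The other libraries of that group were at or below 1.20%. Per length, in the length-scaled TPM deposited by the authors, Prnp was the most abundant of the 4 genes, at 60.4 TPM with isoproterenol and minocycline, 70.7 with isoproterenol and 62.6 in controls. Prnd was at 0.531, 2.28 and 0.972 TPM in the same groups.

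The prion family has a further member, Sprn, which encodes the small surface glycoprotein Shadoo, on chromosome 7. Sprn averaged 1.05 ± 0.320 CPM with isoproterenol and minocycline, 0.868 ± 0.410 CPM with isoproterenol and 0.754 ± 0.313 CPM in controls (SD, n = 6 each). It did not pass the threshold in isoproterenol and minocycline versus isoproterenol, versus control, or in isoproterenol versus control (edgeR, adjusted p = 0.833, 0.296 and 0.757). The groups overlapped in each case. Sprn held between 85 and 128 counts a group. At this depth, the 95% interval of its log2 fold change in isoproterenol and minocycline versus isoproterenol ran between -0.38 and 0.99.

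2210407C18Rik, at chr11:58608204-58616075 on the minus strand, was high with isoproterenol alone. It held between 1.61 and 3.89 CPM with isoproterenol and minocycline (median 2.69), between 5.31 and 10.2 CPM with isoproterenol (median 6.14) and between 1.33 and 3.35 CPM in controls (median 2.42). The isoproterenol libraries all lay above the libraries of the other groups, and the other groups overlapped with each other. A lack of overlap was found for 0.346% of tested genes in isoproterenol and minocycline versus isoproterenol, the comparison that chose this gene. The share was 6.9% in isoproterenol versus control. The group means were 2.70 ± 0.914 CPM with isoproterenol and minocycline, 6.86 ± 1.85 CPM with isoproterenol and 2.42 ± 0.675 CPM in controls (SD, n = 6 each).

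The fitted log2 fold change of 2210407C18Rik was -1.34 (SE 0.22) in isoproterenol and minocycline versus isoproterenol, or 2.53-fold lower. It was 1.52 (SE 0.22) in isoproterenol versus control, or 2.86-fold higher. Against control, the isoproterenol and minocycline group was at 0.18 (SE 0.24). Whether the level of this group equals that of control was not tested. The highest library of the gene, isoproterenol library 2, held 212 counts. Without it, the log2 fold change was -1.18 in isoproterenol and minocycline versus isoproterenol and 1.36 in isoproterenol versus control.

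3425401B19Rik, at chr14:32659119-32685272 on the minus strand, stood in a different order: it was highest in controls and lowest with isoproterenol and minocycline. It held between 49.3 and 58.2 CPM with isoproterenol and minocycline (median 54.1), between 66.4 and 78.8 CPM with isoproterenol (median 71.9) and between 100.6 and 135.3 CPM in controls (median 107.4). No library of any group overlapped with those of another group. The group means were 53.8 ± 3.92 CPM with isoproterenol and minocycline, 72.5 ± 4.47 CPM with isoproterenol and 111.5 ± 12.4 CPM in controls (SD, n = 6 each).

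The fitted log2 fold change of 3425401B19Rik was -0.43 (SE 0.070) in isoproterenol and minocycline versus isoproterenol, or 1.35-fold lower. The same group was 2.07-fold lower than control, at -1.05 (SE 0.070). Isoproterenol alone was 1.54-fold lower than control, at -0.62 (SE 0.069). A lack of overlap in isoproterenol and minocycline versus control was found for 7.14% of tested genes. The shares were 0.346% in isoproterenol and minocycline versus isoproterenol and 6.9% in isoproterenol versus control. Cardiomyocyte marker sums were also lower in both isoproterenol-treated groups than in every control, and overlapped between the isoproterenol and minocycline group and the isoproterenol group. Their part in the level of 3425401B19Rik was not tested.

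**Figure D3:**
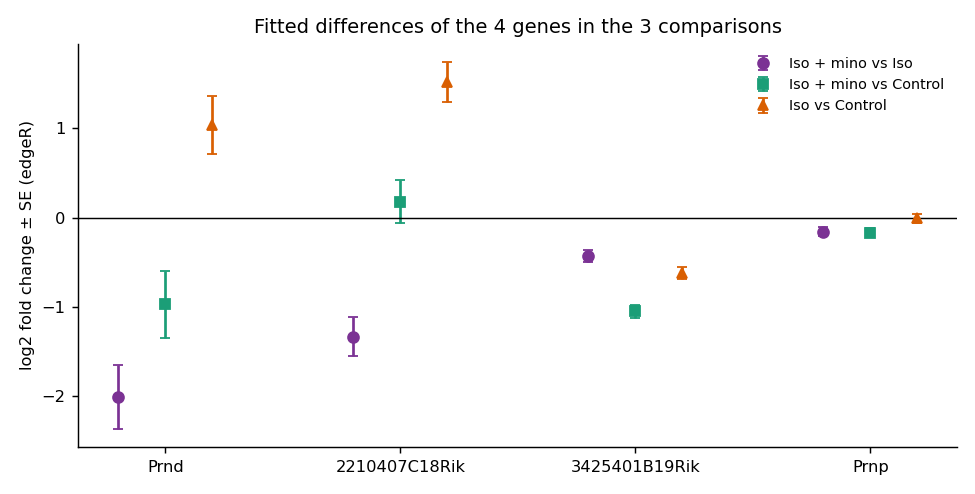
Points give the fitted log2 fold change of each gene and bars its standard error, for isoproterenol and minocycline versus isoproterenol (circles), isoproterenol and minocycline versus control (squares) and isoproterenol versus control (triangles). Prnd and 2210407C18Rik lie below 0 in the first and above 0 in the last, 3425401B19Rik lies below 0 in all 3, and Prnp is within 0.2 of 0 throughout.

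The 4 genes thus differed in level and in precision. Per length, 3425401B19Rik stood at 15.1 TPM with isoproterenol and minocycline, 21.4 with isoproterenol and 28.9 in controls, and 2210407C18Rik at 2.99, 8.02 and 2.51 TPM in the same groups. The order of the genes in mean TPM was Prnp, 3425401B19Rik, 2210407C18Rik and Prnd in every group. The biological coefficient of variation fitted by edgeR was 39.0% for Prnd, 24.5% for 2210407C18Rik, 9.06% for 3425401B19Rik and 6.92% for Prnp. Of the 7 genes called in isoproterenol and minocycline versus isoproterenol, Prnd had the largest p and so stood just inside the threshold. Apln, which encodes the peptide hormone apelin, stood just outside it, with a log2 fold change of -0.76 (SE 0.15).

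Which of the 3 chosen genes were called in isoproterenol and minocycline versus isoproterenol varied with the setting. They were chosen by their calls on these same counts, so calls under other settings are no independent check. All 3 were among the 35 genes called with DESeq2. They were also among the 7 called with RLE scaling, with a filter of 1 CPM in 6 libraries or without mitochondrially encoded genes. Prnd dropped out with upper-quartile scaling, with no filter on low counts and with the atrial markers as a covariate. With only the 12 libraries compared, 3425401B19Rik alone remained of the 3. None of the 3 was called without the 4 libraries above 80 CPM of Myl7, where 1 gene was called over all genes. Over the 18 fits that each left out 1 library, Prnd was called in 5 and lost in 13. It was called without isoproterenol and minocycline library 6, isoproterenol library 2 or controls 1, 2 or 4. 3425401B19Rik was lost in 3 of these fits, those without isoproterenol and minocycline library 1 or 4 or isoproterenol library 6. 2210407C18Rik was lost in the same fits and without isoproterenol and minocycline library 5. Without the 4 libraries the fitted log2 fold changes were -1.92 for Prnd, -1.45 for 2210407C18Rik and -0.43 for 3425401B19Rik.

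Within the groups, correlations between the 4 genes were low. After the group means were taken out, Pearson's r over the 18 libraries was 0.03 between Prnd and 2210407C18Rik, -0.18 between Prnd and 3425401B19Rik and 0.31 between 2210407C18Rik and 3425401B19Rik. Between Prnp and Prnd it was -0.09. These values describe log2-CPM in libraries that also share depth and preparation, and they carry no p-value. The genes most like each of the 4 were named by the same measure among those of at least 1 CPM (11721 or 11722 genes). For Prnd they were Uba7, which activates the ubiquitin-like ISG15 (r = 0.90), Lta4h, an enzyme of leukotriene B4 synthesis (0.85), the peroxidase gene Pxdn (0.84), the semaphorin receptor gene Plxnd1 (0.81) and the nuclease gene Aen (0.80). For 2210407C18Rik they were the tyrosine kinase gene Ptk2b (0.79), Csgalnact2 (0.77), Wwox (0.76), Armcx4 (0.74) and Brd8 (0.74).

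For 3425401B19Rik the most similar genes were Wdr60 (0.82), the ADP-ribosyltransferase genes Art5 (0.79) and Art1 (0.78), Ankrd12 (0.77) and Khnyn (0.75). For Prnp they were Bcas3 (0.82), the kinesin gene Kif5a (0.80), Zfp772 (0.77), the purine synthesis gene Atic (0.77) and L3mbtl3 (0.75). With as few as 7 counts of Prnd in a library, its own r values rest on little depth. Prnd also stood at 2.94 CPM in isoproterenol and minocycline library 6, against at most 1.13 CPM in the rest of that group. The part of that library in the r values of Prnd was not tested. The genes named are the highest of 11721 or 11722 r values, and how high such values reach by chance was not tested.

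The neighbours of the 4 genes on the chromosome were examined to see whether a stretch of genes moved with them. Of 108 genes of the table within 500 kb, 33 were tested. Of these 33, edgeR called 0 in isoproterenol and minocycline versus isoproterenol, and DESeq2 called 0, against 0.0527% of all tested genes called by edgeR. At an unadjusted p under 0.05 there were 5 of the 33 (15.2%), against 7.6% of all tested genes. In isoproterenol and minocycline versus control, 2 were called higher and 1 lower, against 10.2% and 9.05% of all tested genes. The numbers were 2 higher and 2 lower in isoproterenol versus control, against 6.94% and 5.62%.

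Near Prnp and Prnd, the closest tested genes were the adrenergic receptor gene Adra1d, 347.6 kb before Prnp, and Rassf2, 33.3 kb after Prnd. Rassf2 averaged 8.71 CPM with isoproterenol and minocycline, 8.70 CPM with isoproterenol and 6.25 CPM in controls, and was called in isoproterenol and minocycline versus control (log2 fold change 0.49, SE 0.17, edgeR adjusted p = 0.04995). Adra1d was below 1.1 CPM in every group mean and was not called. Near 2210407C18Rik, the closest tested genes were Sh3bp5l, at 260.5 kb, and Gm12258, at 231.1 kb on the other side, neither of them called.

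Near 3425401B19Rik, the closest tested genes were Gm28651, 0.376 kb away, and Ercc6, a DNA repair gene at 78.1 kb on the other side, and neither was called. Ogdhl, which encodes a relative of the 2-oxoglutarate dehydrogenase subunit, lay 311.3 kb away and averaged 52.4 CPM with isoproterenol and minocycline, 56.8 CPM with isoproterenol and 126.8 CPM in controls. Its log2 fold change was -1.27 (SE 0.10, edgeR adjusted p = 7.23e-08) in isoproterenol and minocycline versus control and -1.16 (SE 0.10, adjusted p = 3.65e-07) in isoproterenol versus control, and -0.12 (adjusted p = 0.798) in isoproterenol and minocycline versus isoproterenol. 1810011H11Rik was called higher than control with isoproterenol and minocycline (1.24, adjusted p = 0.0156) and with isoproterenol (1.10, adjusted p = 0.0437). Wdfy4 was called higher in isoproterenol versus control (0.71, adjusted p = 0.00440). Without the 4 libraries above 80 CPM of Myl7, 1 neighbour remained called in isoproterenol and minocycline versus control and 1 in isoproterenol versus control.

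**Figure D4:**
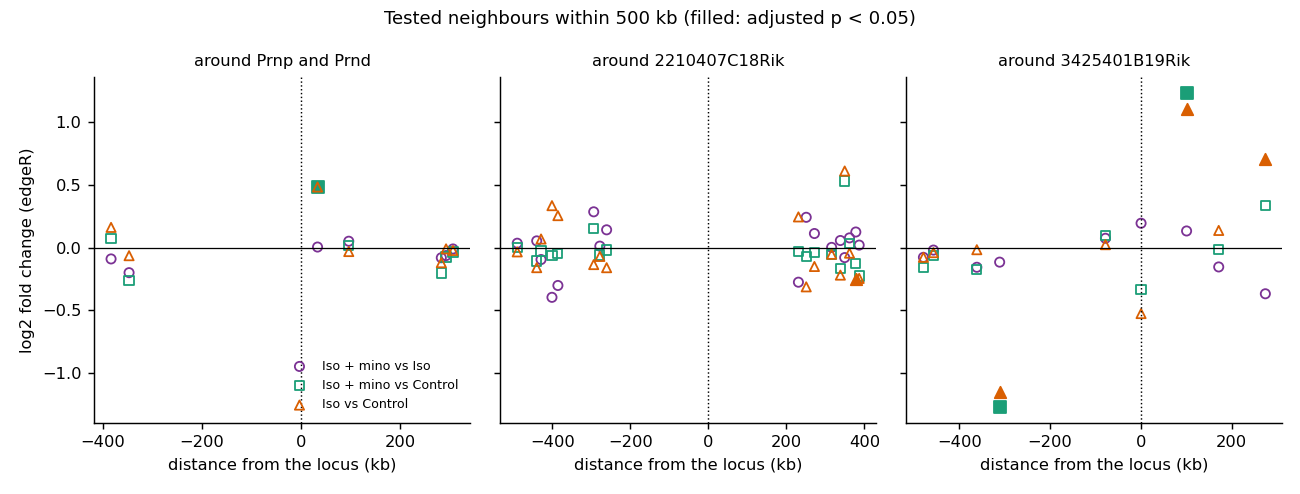
Each symbol is a tested gene within 500 kb, placed by its distance in kb from the locus (0 on the horizontal axis) and by its fitted log2 fold change. Circles stand for isoproterenol and minocycline versus isoproterenol, squares for isoproterenol and minocycline versus control and triangles for isoproterenol versus control. Filled symbols passed an adjusted p under 0.05: no circle is filled, and the lowest filled symbols are those of Ogdhl near 3425401B19Rik.

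Genes of the pathways around these proteins were counted from lists. Of the 234 list genes tested, edgeR called 0 in isoproterenol and minocycline versus isoproterenol, against 0.0527% of all tested genes. There, 27 (11.5%) had an unadjusted p under 0.05, against 7.6% of all tested genes. DESeq2 called 3 of the list genes, Angpt2, Apln and Rpsa, among the 35 that it called over all genes. The comparisons of both isoproterenol-treated groups with control share the control libraries.

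Among 14 tested binding partners and proteases of the prion protein, 3 were called higher and 0 lower in isoproterenol and minocycline versus control, with 6 at an unadjusted p under 0.05. The calls in isoproterenol versus control were 2 higher and 1 lower. This is 21.4% of the list in each comparison, against 19.3% and 12.6% of all tested genes called in these comparisons. Adam8, a membrane metalloprotease, averaged 2.93 ± 1.12 CPM with isoproterenol and minocycline against 0.881 ± 0.245 CPM in controls (3.30-fold higher, edgeR adjusted p = 0.000200). With isoproterenol it averaged 2.58 ± 0.953 CPM (2.90-fold higher than control, adjusted p = 0.00107; SD, n = 6 each). The endocytic receptor gene Lrp1 rose 1.54-fold with isoproterenol and minocycline, and the laminin gene Lamc1 rose 1.21-fold. With isoproterenol, Lamc1 rose 1.19-fold and the laminin receptor and ribosomal gene Rpsa was 1.14-fold lower. The median log2 fold change of the list was 0.09 in isoproterenol and minocycline versus control and 0.11 in isoproterenol versus control, and over all tested genes both medians were within 0.01 of 0.

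Of 21 tested copper-handling genes, 3 were called higher and 1 lower in isoproterenol and minocycline versus control, and 3 higher and 0 lower in isoproterenol versus control. These 4 and 3 of 21 stand near the shares over all tested genes, 19.3% and 12.6%. The metallothionein gene Mt2 averaged 63.6 ± 18.4 CPM with isoproterenol and minocycline against 19.3 ± 8.77 CPM in controls (3.29-fold higher, edgeR adjusted p = 0.00257). Mt1 rose 1.86-fold and the extracellular superoxide dismutase gene Sod3 rose 1.55-fold, and the cytosolic Sod1 was 1.12-fold lower. With isoproterenol, Mt2 rose 2.82-fold, Mt1 rose 1.59-fold and Sod3 rose by 0.58 on the log2 scale. Without the 4 libraries above 80 CPM of Myl7, 3 were called higher and 0 lower in isoproterenol and minocycline versus control, and 0 either way in isoproterenol versus control. Of 27 tested genes of GPI anchor synthesis, 1 was called higher and 1 lower in isoproterenol and minocycline versus control, and 0 higher and 1 lower in isoproterenol versus control, which is 7.41% and 3.70% of the list, against 19.3% and 12.6% of all tested genes called in these comparisons. Pgap2, which remodels the lipid part of the anchor, was 1.49-fold lower with isoproterenol and minocycline (adjusted p = 0.000107) and 1.34-fold lower with isoproterenol (adjusted p = 0.00270).

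For 3425401B19Rik, by its synonym, 17 genes of FHL proteins and calcineurin-NFAT signalling were tested. Fhl2, the gene of the partner named in the synonym, was not called in any comparison. In each comparison with control, 1 gene of the list was called higher and 1 lower, or 11.8% of it, against 19.3% and 12.6% of all tested genes called in these comparisons. Fhl1, a four-and-a-half LIM domain protein gene, averaged 184.0 ± 5.78 CPM with isoproterenol and minocycline, 171.0 ± 8.70 CPM with isoproterenol and 109.8 ± 9.81 CPM in controls (SD, n = 6 each). That was 1.68-fold higher with isoproterenol and minocycline (edgeR adjusted p = 2.80e-08) and 1.56-fold higher with isoproterenol (adjusted p = 3.65e-07). Nfatc2, a transcription factor activated by calcineurin, was 1.37-fold lower with isoproterenol and minocycline (adjusted p = 0.0386) and 1.47-fold lower with isoproterenol (adjusted p = 0.0201).

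Of 28 tested Z-disc genes, 1 was called higher and 10 lower in each comparison with control. Of all tested genes, 10.2% were called higher and 9.05% lower in isoproterenol and minocycline versus control, and 6.94% higher and 5.62% lower in isoproterenol versus control. The calsarcin gene Myoz2 averaged 513.6 ± 49.9 CPM with isoproterenol and minocycline, 473.4 ± 20.8 CPM with isoproterenol and 730.9 ± 41.3 CPM in controls. It was 1.42-fold lower with isoproterenol and minocycline and 1.54-fold lower with isoproterenol (adjusted p = 7.72e-06 and 5.69e-07). The actin-binding Xirp2 was 1.31-fold lower with isoproterenol and minocycline, the muscle cofilin gene Cfl2 1.16-fold lower, and with isoproterenol Synpo2l was 1.54-fold lower. The LIM protein gene Pdlim3 was the one called higher, by 1.86-fold with isoproterenol and minocycline and 1.79-fold with isoproterenol. The median log2 fold change of the list was -0.20 in both comparisons. Without the 4 libraries above 80 CPM of Myl7, the counts were 2 higher and 2 lower in isoproterenol and minocycline versus control, and 2 higher and 3 lower in isoproterenol versus control.

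Of 10 tested VEGF ligands and receptors, 0 were called in isoproterenol and minocycline versus control (edgeR and DESeq2 both, with 1 at an unadjusted p under 0.05). Vegfd rose 1.47-fold in isoproterenol versus control (edgeR adjusted p = 0.0308), the 1 called gene of the list there. This is 0% and 10% of the list, against 19.3% and 12.6% of all tested genes called in these comparisons. Of 10 tested genes reported as sensitive to minocycline in other settings, 4 were called higher and 4 lower in isoproterenol and minocycline versus control, and 3 higher and 3 lower in isoproterenol versus control, against 19.3% and 12.6% of all tested genes called in these comparisons. Those with the smallest p with isoproterenol and minocycline were the matrix protease gene Mmp14 (1.58-fold higher), the kinase gene Mapk14 (1.22-fold lower), the lipoxygenase gene Alox5 (1.38-fold lower) and Parp1 (1.28-fold lower). With isoproterenol, Mmp14 rose 1.51-fold, Mmp2 rose 1.56-fold, and Mapk14 and Alox5 were 1.22-fold and 1.33-fold lower. In isoproterenol and minocycline versus isoproterenol, 0 of these 10 genes were called by edgeR or DESeq2, and 2 had an unadjusted p under 0.05 in edgeR.

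Markers of the cell types that could carry these genes were counted in the same way. The 20 endothelial markers summed to between 1847 and 2635 CPM with isoproterenol and minocycline, between 1871 and 2219 CPM with isoproterenol and between 1805 and 2109 CPM in controls, with overlap throughout. Of these, 5 were called higher in isoproterenol and minocycline versus control, among them Eng (1.51-fold) and Pecam1 (1.31-fold), and 1 lower, the water channel gene Aqp1 (1.97-fold). Eng was higher and Aqp1 lower in isoproterenol versus control. Of 12 markers of sprouting endothelium, 4 were called higher and 1 lower in isoproterenol and minocycline versus control, led by Angpt2 (1.85-fold higher), with Apln 1.51-fold lower. Cd34 and Mcam were the 2 called higher in isoproterenol versus control. Of all tested genes, 10.2% and 6.94% were called higher in these comparisons. When the 4 libraries high in Myl7 were left out, 1 sprouting marker was called higher in isoproterenol and minocycline versus control and 0 in isoproterenol versus control, and 2 and 1 of the endothelial markers. The part of endothelial cells in the level of Prnd was not tested.

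Macrophage markers summed to between 322.6 and 520.8 CPM with isoproterenol and minocycline, between 341.4 and 464.5 CPM with isoproterenol and between 236.6 and 299.0 CPM in controls. Of 14 such markers, 9 were called higher and 0 lower in each comparison with control, against 10.2% of all tested genes called higher in isoproterenol and minocycline versus control and 6.94% in isoproterenol versus control. Leaving out the 4 libraries high in Myl7 gave 7 and 4 called higher. Lymphocyte markers were scarce, with sums of 1.04 to 2.98 CPM with isoproterenol and minocycline, 2.69 to 3.43 CPM with isoproterenol and 1.88 to 3.03 CPM in controls. The sums of the 10 germ and Sertoli cell markers, listed because the testis is the main site of Prnd, lay between 5.70 and 14.5 CPM with isoproterenol and minocycline, between 5.75 and 12.6 CPM with isoproterenol and between 3.88 and 10.2 CPM in controls. The sperm genes Prm1 and Tnp1 were at 0 counts in every library. Of the 10 germ and Sertoli cell markers, 2 were tested. Sox9 was called 1.87-fold higher in isoproterenol and minocycline versus control (edgeR adjusted p = 0.0338), and 0 were called in isoproterenol versus control. Over all tested genes, the shares called higher were 10.2% and 6.94%. When the 4 libraries high in Myl7 were left out, 0 of these markers were called in either comparison. Of the intestinal epithelium markers, Fabp2, Cdx1, Cdx2, Cdhr2 and Sis were at 0 in every library. The only one tested, Lgals4, averaged 43.6 CPM with isoproterenol and minocycline, 34.5 CPM with isoproterenol and 65.5 CPM in controls. It was called lower than control with isoproterenol and minocycline (log2 fold change -0.59, edgeR adjusted p = 0.000561) and with isoproterenol (-0.92, adjusted p = 6.89e-06). The part of macrophages and lymphocytes in the levels of the 4 genes was not tested.

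**Figure D5:**
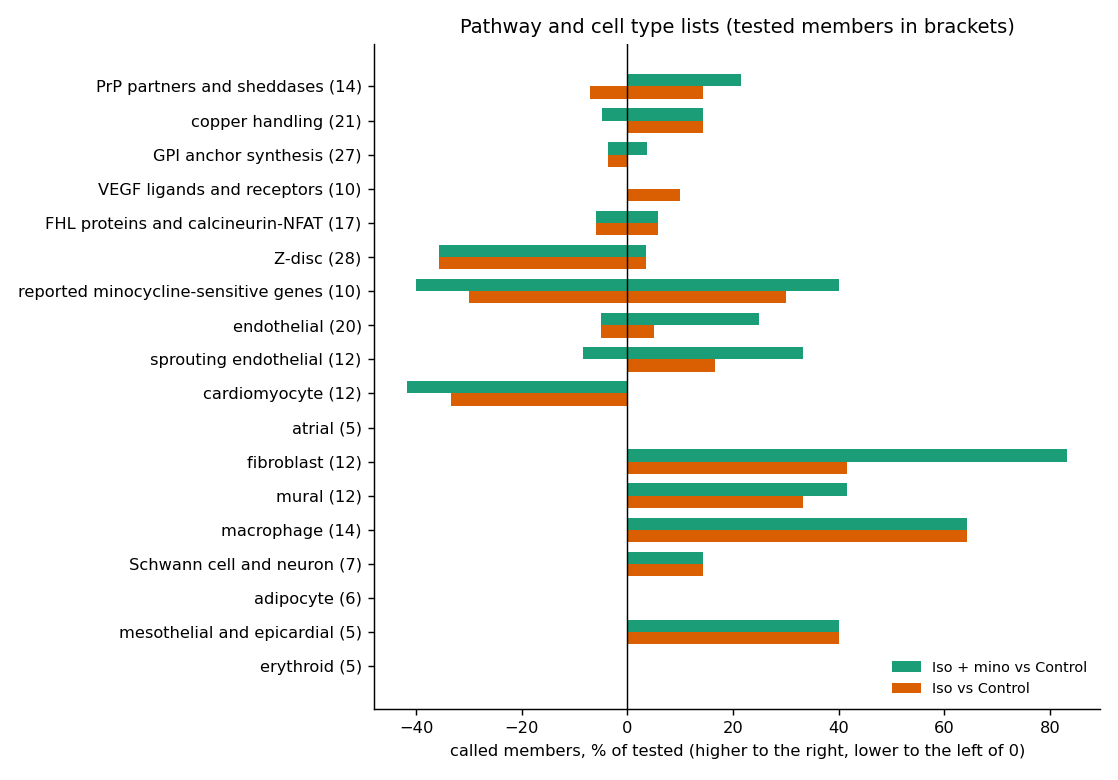
Bars give the share of tested members of each list that were called higher (to the right of 0) or lower (to the left) than control at an adjusted p under 0.05, in percent, for isoproterenol and minocycline versus control (upper bar) and isoproterenol versus control (lower bar). Lists with at least 5 tested members are drawn; Z-disc and cardiomyocyte genes extend to the left, and fibroblast, mural and macrophage genes to the right.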

How the data were processed

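Polyadenylated RNA of 18 left ventricle libraries was sequenced as read pairs (150 bases each). The authors trimmed and analysed the reads in CLC Genomics Workbench 21.0.3, per the labels' protocols (quality limit 0.05, at most 2 ambiguous bases). The submitters' processing notes also name edgeR, with no role. For mapping settings, build, annotation and strand: not given in the sources used here. Gene counts and TPM were used as deposited by the authors; columns were matched to libraries by the number in the description field, and 0 per-sample columns matched no library. Of the gene identifiers, 48349 are in GENCODE M21, and 87.7% of all 48709 have the same start and end there, so coordinates are given on GRCm38.

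The test was edgeR 4.0.16 under R 4.3.3 (filterByExpr, TMM, glmQLFit with robust estimation, glmQLFTest) in 1 fit of the 18 libraries. A call is a 2-sided p under 0.05 after Benjamini-Hochberg adjustment over the 13281 genes tested, which held 99.93 to 99.95% of the counts. SEs are the size of the log2 fold change over the square root of F. Replicate pairs differed by more than counting error (chi-square per degree of freedom 5.46 to 34.7). CPM use TMM-scaled library sizes; log2-CPM for the correlations carry a prior count of 2. Alternatives were DESeq2 1.42.0, other scalings, filters and sample sets, and leaving out each library.

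Besides the 4 genes, the text names Sprn and Prn, the nearest tested and the called neighbours (1 called neighbour is not reported here), up to 4 called members of each list with the smallest p, and the 5 genes most alike in within-group correlation. The genes and lists were chosen with earlier results of these data known.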

Additional observations from a re-analysis of the deposited data

Results flagged for a closer look

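In 2 of the 15 sets of 6 libraries examined (the CPM of Prnd, 2210407C18Rik, 3425401B19Rik, Prnp and Sprn in each group), 1 library stood apart from the other 5 by Dixon's criterion. Chance gives this in about 1 set in 20. Prnd stood at 2.94 CPM in isoproterenol and minocycline library 6, and its gap to the next library was 0.713 of the range of the group, above the critical value of 0.625. The same library held 25 counts of the readthrough gene Prn. 3425401B19Rik stood at 135.3 CPM in control library 2, with a gap of 0.628 of the range.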

How the results depend on the processing

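The log2 fold changes of Prnd, 2210407C18Rik and 3425401B19Rik kept their sign in the 3 comparisons under every alternative and without each library in turn. Where the groups compared did not overlap, leaving out 1 library could hardly have turned the sign, so its stability there is no check. For these genes, groups overlapped only in isoproterenol and minocycline versus control, for Prnd and 2210407C18Rik. In isoproterenol and minocycline versus isoproterenol, leaving out 1 library gave -2.61 to -1.85 for Prnd, -1.47 to -1.18 for 2210407C18Rik, -0.46 to -0.40 for 3425401B19Rik and -0.17 to -0.14 for Prnp. In isoproterenol and minocycline versus control it gave -1.57 to -0.82, 0.05 to 0.29, -1.08 to -0.99 and -0.19 to -0.15, the last with adjusted p of 0.0133 to 0.0634. In isoproterenol versus control it gave 0.92 to 1.15, 1.36 to 1.62, -0.65 to -0.56 and -0.03 to 0.01. The 2210407C18Rik value of 0.05 was without isoproterenol and minocycline library 3.

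Called genes in isoproterenol and minocycline versus isoproterenol numbered 35 with DESeq2 (14 higher, 21 lower), 2 with only the 12 libraries compared (1 lower), 1 without the 4 libraries above 80 CPM of Myl7 (0 lower), and 2 higher with the atrial covariate. List genes called there numbered 3 with DESeq2 and 1 with no filter. Leaving out 1 library gave 1 to 13 called genes (1 to 2 higher, 0 to 11 lower), 0 to 1 list genes and 0 neighbours. Isoproterenol and minocycline library 6 gave the 13, and libraries 1 and 4 and isoproterenol library 6 gave the 1. In isoproterenol and minocycline versus control, leaving out the Myl7 libraries gave 1369 genes (756 higher, 613 lower), 46 list genes and 1 neighbour, DESeq2 gave 5 neighbours, and leaving out 1 library gave 1789 to 2930 genes (957 to 1501 higher, 832 to 1429 lower), 60 to 85 list genes and 1 to 4 neighbours. In isoproterenol versus control, leaving out the Myl7 libraries gave 681 genes (372 higher, 309 lower), 31 list genes and 1 neighbour, and leaving out 1 library gave 1079 (without control 4) to 1877 genes (580 to 1020 higher, 499 to 857 lower), 44 to 65 list genes and 3 to 5 neighbours. Leaving out libraries also leaves fewer samples to test. For Prnp in isoproterenol and minocycline versus control, the calls lost had log2 fold changes of -0.165 with no filter, -0.167 with the 12 libraries and -0.148 without the Myl7 libraries. The cause was not tested. No paired analysis was possible because the labels give no replicate number shared between groups. Prnd, with 7 to 123 counts a library, is limited by depth.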

Other observations

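Fibroblast markers were called higher in 10 of 12 in isoproterenol and minocycline versus control and in 5 of 12 in isoproterenol versus control, with 0 lower in either, against 10.2% and 6.94% of all tested genes called higher. Postn, which encodes the matrix protein periostin, averaged 139.2 ± 60.3 CPM with isoproterenol and minocycline, 138.5 ± 30.8 CPM with isoproterenol and 55.6 ± 26.4 CPM in controls (SD, n = 6 each). Of 12 mural markers, 5 were called higher in isoproterenol and minocycline versus control and 4 in isoproterenol versus control. Of 5 tested mesothelial and epicardial markers, Krt18 and Aldh1a2 were called higher in both. Without the 4 libraries above 80 CPM of Myl7, fibroblast calls numbered 4 in isoproterenol and minocycline versus control and 2 in isoproterenol versus control.

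The interferon-inducible GTPase genes Igtp and Irgm2 lie within 500 kb of 2210407C18Rik. Igtp averaged 10.2 CPM with isoproterenol and minocycline, 13.4 CPM with isoproterenol and 10.6 CPM in controls, and Irgm2 averaged 15.7, 19.3 and 16.2 CPM in the same groups. They did not pass the threshold in isoproterenol and minocycline versus isoproterenol (edgeR, adjusted p = 0.535 and 0.469), and they were named after their values were seen.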
